A study of Rattus norvegicus with 4 samples.

Results

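The genes described here are the core of prostaglandin and leukotriene synthesis: Ptgs1, Ptgs2, Ptges, Hpgds, Tbxas1, Alox5, Alox5ap, Alox15, Lta4h and Ltc4s. They were chosen by name, as every probe of the arrays other than control probes whose gene name was one of these 10. This gave 11 of 30367 probes, and 8 of the 10 genes were bright enough to be tested, among 12858 genes tested in all. Only Hpgds, the hematopoietic prostaglandin D synthase, passed the test: it was 3.87-fold lower after liposomes than after saline. Ptgs2, Alox5ap and Alox15 had point estimates between 1.59-fold and 1.71-fold lower that did not pass, and Tbxas1 and Lta4h overlapped between the groups.

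The study compared spleens of male WKAH rats, 8 to 12 weeks old, taken 24 h after an injection of saline or of liposomes, which are small vesicles of lipid. The liposomes' composition and dose are not given in the sources used here. Cells carrying MHC class II were first removed with OX-6 beads, and cells carrying CD11b/c, an integrin of myeloid cells, were then kept with the OX-42 antibody, so both groups hold this enriched and mixed fraction rather than a pure cell type. Each group has 2 one-colour arrays, named here by group and by the number that follows "exp" at the end of the title, and nothing in the labels ties them to separate animals. The p-values therefore describe how far these samples spread, and that spread may be technical.

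Prostaglandins and leukotrienes are lipid messengers that cells make from arachidonic acid once phospholipases free it from membranes. The cyclooxygenases Ptgs1 and Ptgs2 turn it into prostaglandin H2, from which terminal synthases make prostaglandin E2, prostaglandin D2 or thromboxane. On the other branch Alox5, helped by the membrane protein Alox5ap, makes leukotriene A4, which Lta4h converts to leukotriene B4, an attractant of neutrophils, and Ltc4s to leukotriene C4. Macrophages, neutrophils, mast cells and platelets are known producers, each with its own set of terminal enzymes.

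Values below are scaled intensities, the brightness of a probe as a percent of its array's 75th percentile. Differences are log2 fold changes, liposome minus saline, with the standard error from limma over 2 arrays per group. A gene passed when its Benjamini-Hochberg adjusted p over all 12858 genes was under 0.05. A probe's brightness depends on its own sequence, so levels are compared between arrays and never between genes. The most telling probes, those of the 4 tested genes with the largest differences, are shown as printed on the array, all 60 bases 5′ to 3′ on the gene's strand.

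Hpgds: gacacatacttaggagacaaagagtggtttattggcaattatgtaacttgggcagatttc
Ptgs2: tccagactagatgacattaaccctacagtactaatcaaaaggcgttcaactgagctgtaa
Alox15: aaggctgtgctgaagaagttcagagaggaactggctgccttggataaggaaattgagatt
Alox5ap: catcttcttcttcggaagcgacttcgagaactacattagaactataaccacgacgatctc

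In the array's design, on the rat build rn4, the Ptgs2 probe lies at chr13:64432919-64432978 on the plus strand. The Alox15 probe lies at chr10:57186202-57186261 and the Alox5ap probe at chr12:6246233-6246292, both on the minus strand. The Hpgds probe covers chr4:94611968-94615159 on the minus strand, a span of 3192 bases for a probe of 60, so its sequence is split over more than 1 genomic block. No annotation of rn4 was used here, so exons and UTRs are not assigned.

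Among the 8 tested genes 1 fell, none rose and 7 did not pass. Of all 12858 genes tested by limma, 8.89% passed in either direction, 4.06% as lower and 4.83% as higher. At an unadjusted p under 0.05, 5 of the 8 genes were lower and 0 higher, where 16.6% of all genes were lower, 16% higher and 32.5% either. Both liposome arrays lay below both saline arrays for 6 of the 8 genes, which was so for 35.1% of all genes, and for none did both lie above, as they did for 30.4% of all genes. The median log2 fold change was -0.50 for the 8 genes and -0.04 for all genes tested. The genes were chosen with results of these arrays known, so these counts are a description.

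**Figure D1:**
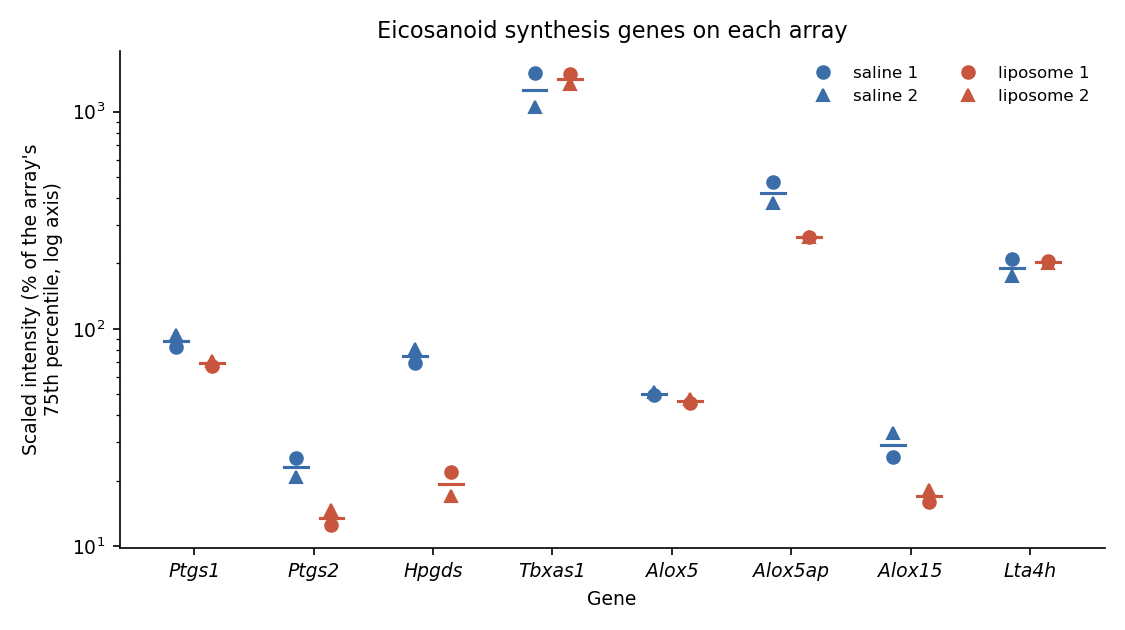
Scaled intensity (percent of the array's 75th percentile, log axis) of the 8 tested genes on each of the 4 arrays. Points are arrays, circles for number 1 and triangles for number 2, and bars are group means on the log scale. For Hpgds both liposome arrays (21.9 and 17.1) sit far below both saline arrays (69.3 and 80.5), while for Tbxas1 and Lta4h the groups overlap.

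The cyclooxygenases come first in the prostanoid branch. Ptgs2, the inducible cyclooxygenase of inflammation, had scaled intensities of 25.5 and 20.8 on saline arrays 1 and 2, and of 12.5 and 14.6 on liposome arrays 1 and 2. The groups did not overlap, and the liposome arrays were the lower ones. The log2 fold change was -0.77 ± 0.16 (SE; limma adjusted p = 0.0585), with a 95% confidence interval from -1.20 to -0.35, so the difference did not pass. Compared within title numbers, Ptgs2 was 2.04-fold lower in number 1 and 1.43-fold lower in number 2.

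Ptgs1, the cyclooxygenase present in most tissues at rest, is printed on 10 spots of each array by its bright probe (rn4 chr3:15365115-15365174, plus strand). Its scaled intensity was 82.5 and 93.4 on the saline arrays and 67.3 and 71.5 on the liposome arrays. Again both liposome arrays were lower, by a smaller margin. The log2 fold change was -0.34 ± 0.11 (SE; limma adjusted p = 0.133; 95% confidence interval -0.65 to -0.03). A second Ptgs1 probe (rn4 chr3:15350683-15350742) was not well above background on any array and gives no value for the gene.

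The repeat spots show how precisely 1 array reads 1 probe. Over its 10 spots Ptgs1 read 82.6 ± 4.31 (SD) on saline 1 and 93.4 ± 2.06 on saline 2. On liposome 1 it read 67.4 ± 2.40 and on liposome 2 71.5 ± 2.14. The spots of saline 1 spanned 74.7 to 89.4 and those of saline 2 90.1 to 96.2, so the saline arrays were further apart than their spots. The spots of liposome 1, from 62.9 to 70.8, and liposome 2, from 68.7 to 74.9, overlapped. Lta4h, also printed 10 times, read 175 ± 4.92 on saline 2 against 210 ± 6.97 on saline 1, a gap wider than that between its liposome arrays, at 206 ± 6.48 and 201 ± 6.37. Spots of 1 array are technical repeats and were averaged before any test.

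**Figure D2:**
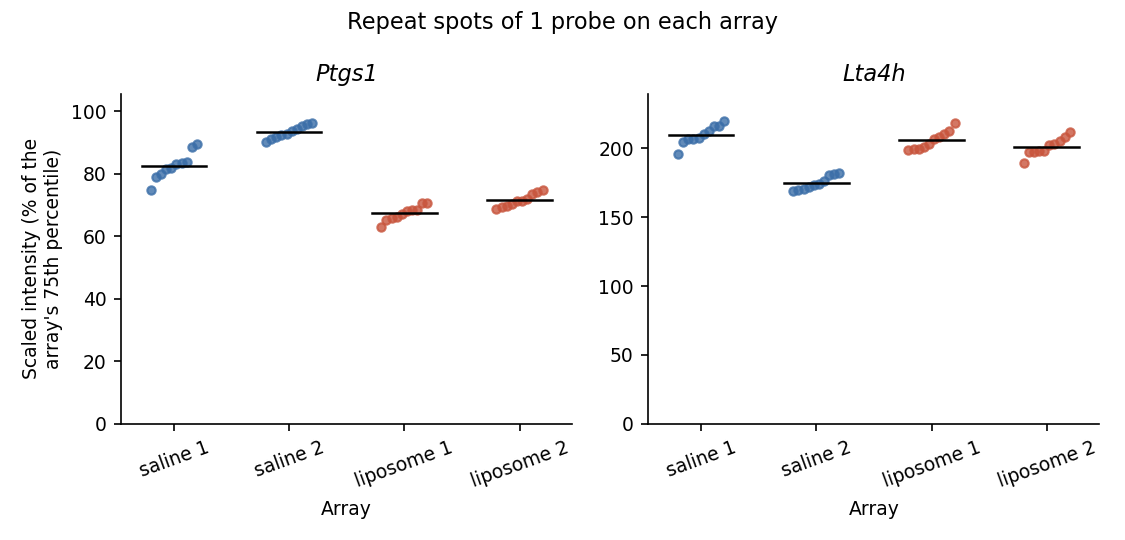
Scaled intensity (percent of the array's 75th percentile) of each of the 10 repeat spots of the Ptgs1 and Lta4h probes on the 4 arrays, with the mean as a bar. Every Ptgs1 spot of the liposome arrays reads at most 74.9 and nearly all saline spots read above that, whereas for Lta4h saline 2 is the low array and the other arrays share a range.

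The promoters of the cyclooxygenases differ in sequence features. They are shown because these 2 enzymes carry out the same reaction, and because textbook accounts set the inducible Ptgs2 against the steadily expressed Ptgs1. The 250 bases before each start site, from RefSeq on GRCr8, are at chr3:39981169-39981418 for Ptgs1 and chr13:64713813-64714062 for Ptgs2, both on the plus strand. Capitals mark matches to any of 4 motifs searched on both strands.

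Ptgs1: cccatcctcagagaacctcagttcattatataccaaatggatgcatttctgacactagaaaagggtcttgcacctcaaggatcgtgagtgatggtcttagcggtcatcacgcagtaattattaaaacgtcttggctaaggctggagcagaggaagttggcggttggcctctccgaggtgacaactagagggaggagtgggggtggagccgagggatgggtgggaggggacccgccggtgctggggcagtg
Ptgs2: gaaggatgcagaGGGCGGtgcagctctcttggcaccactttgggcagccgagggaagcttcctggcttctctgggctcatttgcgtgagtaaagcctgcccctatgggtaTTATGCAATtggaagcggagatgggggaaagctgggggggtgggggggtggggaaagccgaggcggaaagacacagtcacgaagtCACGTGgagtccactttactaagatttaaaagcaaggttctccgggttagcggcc

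The motifs were the E-box CACGTG, the C/EBP motif TTNNGNAAT, the Sp1 motif GGGCGG and the TATA motif TATAAA. The Ptgs2 window holds CACGTG at 55 to 50 bases before the start, TTATGCAAT at 140 to 132 and GGGCGG at 238 to 233, and the Ptgs1 window holds none of the 4. Over 33469 rat promoters of the same length, 5.59% hold CACGTG, 10.87% the C/EBP motif, 30.47% GGGCGG and 12.93% TATAAA. Promoters of 7 of the 10 genes were in the table used. GGGCGG occurs in 4 of them (Ptgs2, Ptges, Alox5 and Lta4h), and TATAAA in that of Tbxas1 alone among the 7. A match is a description of letters and shows no binding.

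The terminal prostanoid synthases gave the clearest difference. Hpgds makes prostaglandin D2 from prostaglandin H2 and is known from mast cells, some T cells, megakaryocytes and macrophages. Its scaled intensity was 69.3 and 80.5 on the saline arrays against 21.9 and 17.1 on the liposome arrays. All 4 arrays measured it well above background, and the lowest saline array was over the highest liposome array by a wide margin. Hpgds fell by 1.95 ± 0.17 on the log2 scale (SE; limma adjusted p = 0.0160), a 3.87-fold difference with a 95% confidence interval from 2.80-fold to 5.33-fold. Within title numbers it was 3.17-fold lower in number 1 and 4.72-fold lower in number 2. Only 65 of the 12858 genes, or 0.506%, had a lower log2 fold change.

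With 1 array left out the Hpgds difference kept its sign and size while its call depended on which array was gone. The adjusted p was 0.0470 without saline 1, 0.0530 without saline 2, 0.0725 without liposome 1 and 0.0890 without liposome 2, with log2 fold changes of -2.06, -1.84, -2.13 and -1.77. Without a filter on dim probes the adjusted p was 0.174. RNA was measured per array and not per cell, so fewer cells of a type and less Hpgds RNA per cell cannot be told apart.

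Thromboxane synthase, Tbxas1, makes the platelet activator thromboxane A2 and is known from platelets and macrophages. It read 1501 and 1047 on the saline arrays and 1486 and 1338 on the liposome arrays, with both liposome arrays inside the saline range. The log2 fold change was 0.17 ± 0.21 (SE; limma adjusted p = 0.599; 95% confidence interval -0.39 to 0.73), so a difference of either sign fits within the interval. Ptges, the inducible prostaglandin E synthase, was not well above background on any array. Its readings of 2.92, 1.87, 1.85 and 1.60 on saline 1, saline 2, liposome 1 and liposome 2 only bound the gene from above. The filter on dim probes left it out of the test.

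**Figure D3:**
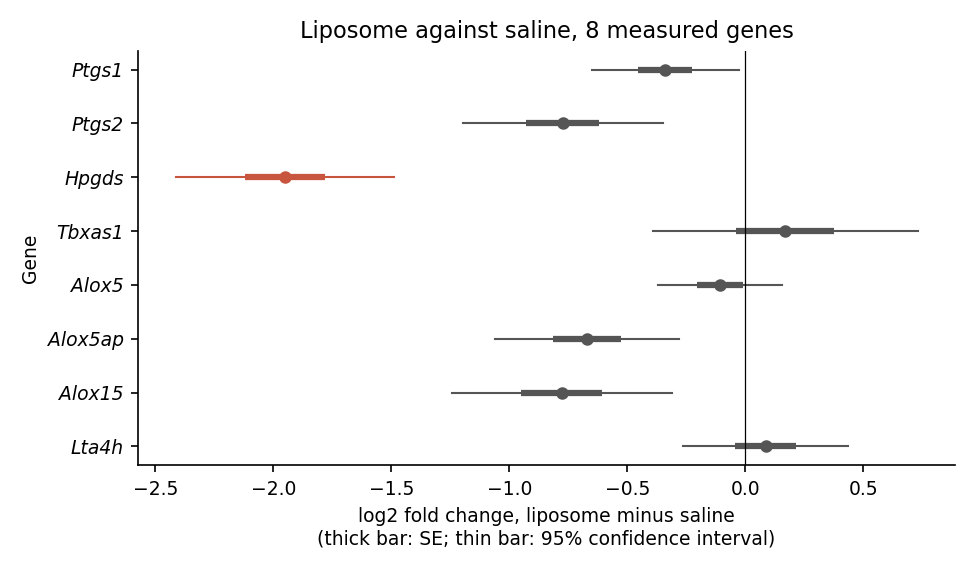
Log2 fold change, liposome minus saline, of the 8 tested genes, with the limma standard error as a thick bar and the 95% confidence interval as a thin bar, n = 2 arrays per group. Hpgds (-1.95), in red, is the gene that passed at an adjusted p under 0.05, and the intervals of Tbxas1, Alox5 and Lta4h include 0.

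In the lipoxygenase branch neither the enzyme Alox5 nor its activator Alox5ap passed. Alox5, which starts leukotriene synthesis, read 49.4 and 51.1 on the saline arrays and 45.6 and 47.8 on the liposome arrays. The liposome arrays were lower without overlap, but the log2 fold change was only -0.11 ± 0.10 (SE; limma adjusted p = 0.483; 95% confidence interval -0.37 to 0.16). Alox5ap, which presents arachidonic acid to Alox5, read 472 and 378 against 266 on both liposome arrays. Its log2 fold change was -0.67 ± 0.14 (SE; limma adjusted p = 0.0637; 95% confidence interval -1.06 to -0.28), 1.59-fold lower without passing. Whether the log2 fold changes of Alox5ap and Alox5 differ was not tested.

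Alox15 adds oxygen at another carbon of arachidonic acid and is known from eosinophils and resident macrophages of rodents. It read 25.6 and 33.3 on the saline arrays and 15.9 and 18.2 on the liposome arrays, again with no overlap. The log2 fold change was -0.78 ± 0.17 (SE; limma adjusted p = 0.0657; 95% confidence interval -1.24 to -0.31), 1.71-fold lower. Over the 12 processing alternatives the limma adjusted p of Alox15 ran from 0.0324 to 0.306 and passed in 2, and that of Alox5ap ran from 0.0369 to 0.305 and passed in 1. Both genes had a negative log2 fold change in all 12.

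The terminal leukotriene enzymes showed no difference that passed. Lta4h (rn4 chr7:30512501-30512560, plus strand) read 209 and 175 on the saline arrays and 206 and 201 on the liposome arrays, which overlapped. Its log2 fold change was 0.09 ± 0.13 (SE; limma adjusted p = 0.666), and the 95% confidence interval of -0.26 to 0.44 leaves room for modest differences in both directions. Ltc4s read 1.54, 2.35, 2.28 and 2.21 on saline 1, saline 2, liposome 1 and liposome 2. No array measured it well above background, so the filter on dim probes left it out of the test.

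The other genes of the pathway were followed through lists of enzymes, transporters and receptors. Of 91 such genes with a probe 62 were bright enough to test, 2 of them rose, 3 fell and 57 did not pass. Their median log2 fold change was -0.11. The share that passed is close to the 8.89% of all genes.

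Among 15 tested phospholipases and related lipases 1 rose and 1 fell, with a median of -0.02. Each of these was above background in only 1 group, and entered the test through that group. Mgll, the monoacylglycerol lipase that releases arachidonic acid from an endocannabinoid, read 1.45 and 1.63 on the saline arrays, neither well above background, and 45.0 and 35.0 on the liposome arrays. It was at least 11.3-fold higher after liposomes, taking for each saline array the lowest scaled intensity that was well above background (limma adjusted p = 0.00752, from a fit that sets measured values against readings not above background). Pla2g5, a secreted phospholipase A2, read 7.04 and 8.90 on the saline arrays but was not well above background after liposomes, at least 2.53-fold lower by the same rule (limma adjusted p = 0.0160, with the same limit). Neither gene was tested when probes had to be well above background on all 4 arrays. Pla2g4a, the cytosolic phospholipase A2 that feeds cyclooxygenases and lipoxygenases, read 69.8 and 41.9 against 87.3 and 93.7, a log2 fold change of 0.74 ± 0.27 (SE; limma adjusted p = 0.151). Pla2g2f had -0.47 (limma adjusted p = 0.118) and Daglb, which makes the lipid that Mgll cleaves, 0.29 (limma adjusted p = 0.143).

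Of 16 other eicosanoid synthases 1 fell, Mgst2, a microsomal glutathione transferase that can make leukotriene C4. It read 621 and 551 on the saline arrays and 363 and 328 on the liposome arrays, a log2 fold change of -0.76 ± 0.12 (SE; limma adjusted p = 0.0414). The related Mgst3 had the opposite sign, 25.6 and 30.9 against 49.9 and 45.5, and did not pass (0.76 ± 0.14, SE; limma adjusted p = 0.0501). Ggt5, which trims leukotriene C4 to leukotriene D4, read 33.4 and 24.8 against 15.3 and 14.8 and did not pass either (-0.94 ± 0.18, SE; limma adjusted p = 0.0519). Cbr1, a carbonyl reductase, had 0.57 (limma adjusted p = 0.0594) and Ephx1, an epoxide hydrolase, 0.43 (limma adjusted p = 0.0757).

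Among 10 tested genes of export and inactivation 1 fell. Cyp4f18, a cytochrome P450 known to inactivate leukotriene B4 in neutrophils, read 142 and 122 on the saline arrays and 59.3 and 73.6 on the liposome arrays (-1.0 ± 0.16, SE; limma adjusted p = 0.0417). Hpgd, the dehydrogenase that begins prostaglandin breakdown and is distinct from the synthase Hpgds, read 11.5 and 17.5 against 7.53 and 6.56 without passing (-1.01 ± 0.24, SE; limma adjusted p = 0.0737). Abcc1, which exports leukotriene C4, had 0.26 (limma adjusted p = 0.147), Cyp4f17 -0.24 (0.176) and the reductase Ptgr3 -0.24 (0.253). Of 10 acyl-CoA synthetases and re-esterifying enzymes tested by limma none passed, with a median of -0.07. Of these, 3 had an unadjusted p under 0.05, near the 32.5% of all genes. Lpcat4 had -0.80 (limma adjusted p = 0.120), Lpcat3, which puts arachidonic acid back into phospholipids, 0.44 (0.131), Mboat7, which does so for phosphatidylinositol, -0.44 (0.131), Acsl4 0.25 (0.165) and Acsl3 -0.20 (0.318).

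Of 6 prostanoid receptor genes tested by limma none passed, and 4 had an unadjusted p under 0.05, against 32.5% of all genes. Ptger2, a receptor of prostaglandin E2, read 51.4 and 41.7 against 67.5 and 69.0 (0.56 ± 0.14, SE; limma adjusted p = 0.0799). The thromboxane receptor Tbxa2r had -0.41 (limma adjusted p = 0.0748), the receptor-associated protein Ptgfrn -1.01 (0.0796), the prostaglandin D2 receptor Ptgdr -0.44 (0.152) and Ptger4 0.17 (0.655). Of 5 leukotriene, lipoxin and resolvin receptors 1 rose: Cmklr1, which binds chemerin and has been described as a resolvin receptor, read 18.3 and 11.5 against 43.0 and 41.1, 2.90-fold higher (limma adjusted p = 0.0423). Ltb4r, the leukotriene B4 receptor, had -0.42 (limma adjusted p = 0.197), Gpr18 -0.61 (0.0819) and Gpr31 -1.28 (0.0736). Gpr17 had -0.02 (0.932), a sign that turned under median scaling and quantile normalization.

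The calls outside Hpgds also rest on few arrays. Mgst2, Cyp4f18 and Pla2g5 lost theirs with any of the 4 arrays left out, and Mgll and Cmklr1 when either liposome array was. All 5 also lost them without the filter on dim probes. Under normexp background correction, which adds an offset to dim signals, the fitted log2 fold change of Mgll was 2.36 rather than 4.69 and that of Pla2g5 -1.28 rather than -3.58. The normexp offset of 50 draws dim readings together by construction, so with it both differences lie under the bounds given above, which hold for the processed intensity alone.

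**Figure D4:**
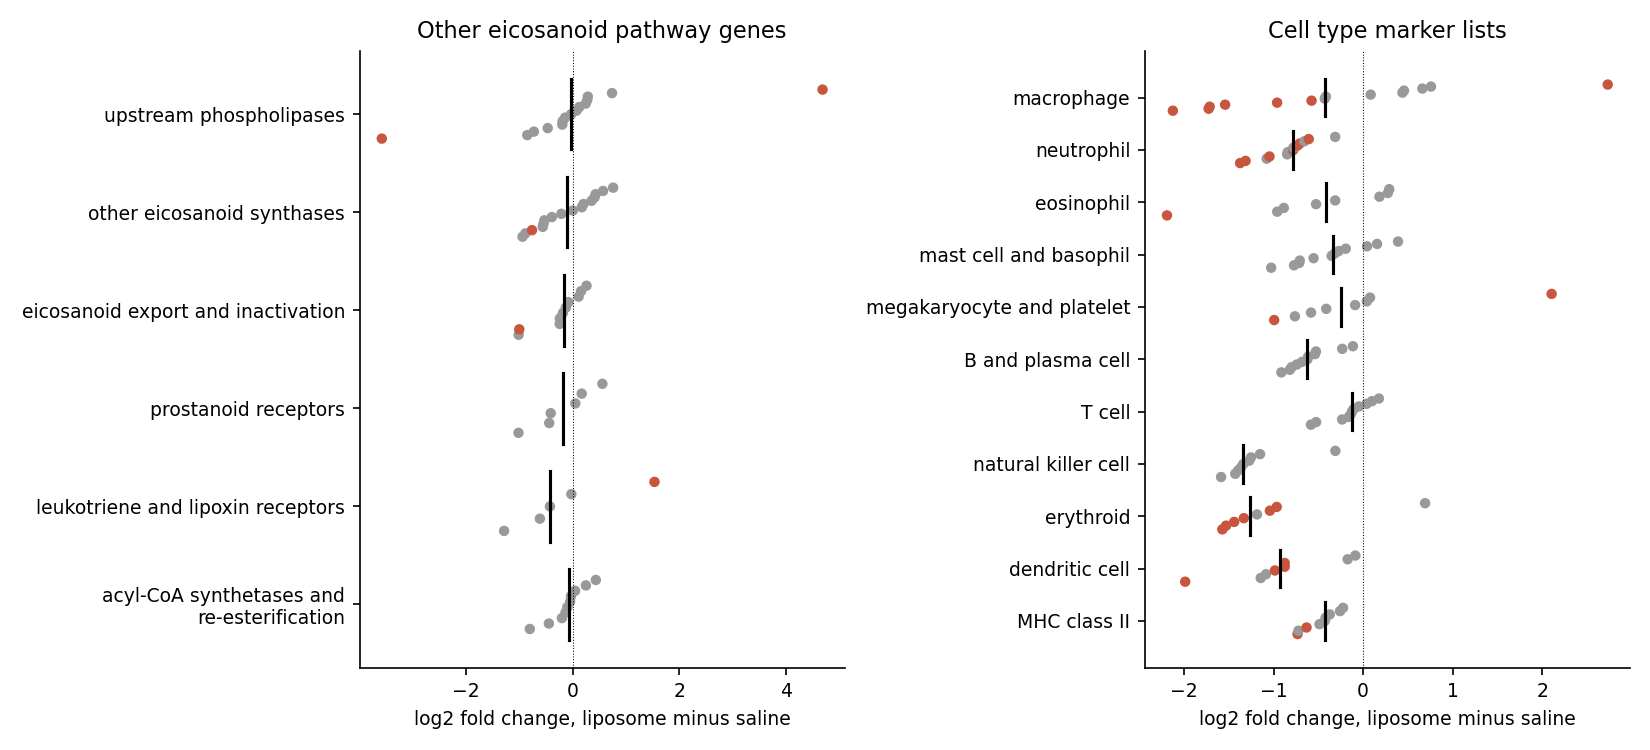
Log2 fold change, liposome minus saline, of each tested gene in the other eicosanoid pathway lists (left) and the cell type marker lists (right). Red points passed at an adjusted p under 0.05, grey points did not, and bars are list medians. Medians run from -0.42 to -0.02 over the pathway lists and from -1.34 (natural killer) to -0.12 (T cell) over the marker lists.

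Markers of the cells that could carry these enzymes moved as well, and their part in the differences of Hpgds, Ptgs2, Alox5ap, Alox15, Mgst2 and Cyp4f18 was not tested. Of 13 tested neutrophil genes 7 fell and none rose, where 4.06% of all genes fell and 4.83% rose. S100a8 was at -0.78, S100a9 at -0.73 and Ngp at -1.31. The summed scaled intensity of the 13 was 27085 to 31326 after saline and 15734 to 17971 after liposomes. S100a8 and S100a9, with the brightest probes of the list, make up much of it. For macrophages 6 of 14 fell and 1 rose, the median was -0.42, and the sum was 21315 to 24629 against 20936 to 21684. Those that fell were Cd5l (-2.13), C1qa (-1.73), C1qb (-1.71), Vcam1 (-1.54), Cd163 (-0.96) and Slc40a1 (-0.58). Mertk was the gene that rose, but neither saline array read it well above background, so it entered the test through the liposome arrays. Its fitted log2 fold change of 2.73 sets measured values against readings not above background. The rise was at least 6.38-fold, taking no saline reading as lower than that array's lowest scaled intensity well above background. Cd68, at 0.76, Adgre1, at -0.43, and Csf1r, at -0.42, did not pass. Mrc1, at 0.66, Itgam, at 0.46, Spic, at 0.44, and Lyz2, at 0.08, were positive and did not pass either. Of the 14 macrophage genes 8 were negative. Lyz2, with the brightest probe, makes up much of the macrophage sum. Mast cell and basophil genes, tested by limma, gave 0 of 12 that passed and 3 at an unadjusted p under 0.05 (32.5% of all genes), with Cpa3 at -0.19, Fcer1a at -0.71 and Ms4a2 at -0.71. Their sums of 2204 to 3455 and 1931 to 2359 overlapped. Of 8 eosinophil genes 1 fell, Ccr3 (-2.19), and the median was -0.42. The first 3 of the list, Prg2, Prg3 and Epx, at 0.28, 0.18 and 0.29, did not pass, with standard errors of 0.65, 0.58 and 0.66. They were the positive ones, and the other 5, Ccr3 among them, were negative. In these 3 genes number 2 exceeded number 1 by 1.16, 1.07 and 1.09 (saline) and 1.48, 1.27 and 1.58 (liposome) on the log2 scale. Of 8 megakaryocyte and platelet genes Pf4 rose (2.11), Gp9 fell (-0.99) and the median was -0.25. Ccr3, Gp9 and the macrophage genes other than Cd68, Adgre1 and Csf1r were named after their values were seen.

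RNA of genes used as markers of other cells was also measured after both bead steps, and which cells carried it was not tested. Dendritic genes fell in 4 of 8, where 4.06% of all genes fell, Flt3 among them (-0.99) and Clec9a (-1.09) not. Red cell genes fell in 6 of 8, with Hba-a1 at -1.44, Hbb at -1.53 and Alas2 at -1.33. MHC class II genes, the target of the depletion, summed to 40662 to 44787 after saline and 31667 to 31728 after liposomes, and 2 of 9 fell, RT1-Db1 (-0.63) among them and RT1-Da (-0.42) not. In the B, T and natural killer cell lists limma passed 0 of 11, 0 of 11 and 0 of 9 genes, with 9, 1 and 0 lower at an unadjusted p under 0.05 (16.6% of all genes). Cd79a and Cd79b were at -0.74 and -0.61, Cd3d, Cd3e and Cd3g at 0.04, 0.18 and -0.16, and Klrb1a, Klrd1 and Ncr1 at -1.25, -1.34 and -1.36. T and natural killer genes followed the title number. On the log2 scale number 2 exceeded number 1 by a median of 1.31 (saline) and 0.92 (liposome) for T cells. For natural killer cells it did so by 1.69 and 1.66. Compared within title numbers, the median natural killer difference was -1.24 in number 1 and -1.33 in number 2. All 9 natural killer genes had a negative log2 fold change. The T cell medians within numbers were 0.01 and -0.19.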

How the data were processed

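The authors deposited linear spot intensities. Their processing notes name Agilent Feature Extraction 10.7.3.1 as the software that read the scans. Per the file headers, the processed intensity was background-subtracted and detrended within each array and not scaled between arrays. After removal of controls and of outlier-marked spots, repeat spots were averaged per probe, and log2 values were centred on the 75th percentile of their array (962 to 1091). The filter kept the 16852 probes that were well above background on both arrays of a group, and 278 probes lacking a value on any of the 4 arrays were dropped. Of 30367 probes 18006 took their symbol from the reference gene table, 8186 kept the file's name and 4175 had none. The brightest probe stood for each of 1834 genes with several. On each array 54.7% to 60.3% of probes were well above background and none was saturated. The number of arrays limits the precision.

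The group difference came from lmFit and eBayes of limma 3.58.1 (R 4.3.3), after the script had been tested on simulated data. To the 2 residual degrees of freedom eBayes added 2.26 prior ones, drawn from the spread of all genes tested. The standard errors, p-values and confidence intervals therefore borrow from other genes. With 2 arrays a side the smallest exact permutation p is 0.333, so none is given. The genes, the lists, the tests and the alternatives were chosen with earlier results of these data known. Genes named are the 10 chosen, up to 5 of each pathway list with the smallest adjusted p, and the first 3 of each cell type list where tested, of which 1 is not reported here. Others are said to be named after their values were seen. The lists are those of phospholipases, other synthases, export and inactivation, prostanoid receptors, leukotriene and lipoxin receptors, re-esterification, and markers of 10 cell types and of MHC class II. Alternatives were median scaling, quantile normalization, normexp correction of the deposited mean and background intensities, 2 other filters, the mean of a gene's probes, outliers kept, the title number as a block and each array left out.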

Additional observations from a re-analysis of the deposited data

How the results depend on the processing

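Hpgds was lower under all 12 alternatives, by -2.13 to -1.63 on the log2 scale with adjusted p from 0.00657 to 0.174, and passed in 8. Ptgs2 was lower in all 12 and passed in 0 by limma (adjusted p 0.0502 to 0.294). The fit used throughout passed 1143 genes, 1 of the 8 and 5 of the 62 pathway genes. Normexp passed 1720, 3 and 9. Without a filter on dim probes limma passed 0, 0 and 0, of 21971 genes in all, all 10 chosen genes and 91 pathway genes. Of these, 3005, 4 and 17 had an unadjusted p under 0.05 by limma. The smallest adjusted p was 0.143, and the median over all genes was -0.17. Median scaling raised the share of calls that were higher from 54.3% to 65.8%. The replicate block on the title number passed 1816, 2 and 14, among them Alox15 (adjusted p = 0.0324), Ggt5 (0.0329), Lpcat4 (0.0273), Mgst3 (0.0472), Ptgfrn (0.0475) and Gpr18 (0.0496). The number follows "exp" in the titles and the labels do not say what it marks, so it was not taken as a pairing, and the differences between numbers correlated at 0.355 across 12858 genes between the groups. With 1 array left out, the calls ranged from 0 to 499 over all genes, 0 to 1 for the 8 and 0 to 4 for the pathway. The counts of 0 over all genes came without liposome 1 or liposome 2, where limma gave 2177 and 2397 genes at an unadjusted p under 0.05, and a lone array was then assumed to vary like the other group. Without saline 1 it passed 499 genes and without saline 2 372. Signs turned for genes near 0: Gpr17 to 0.059 (median scaling) and 0.017 (quantile), and with 1 array left out Gpr17 ranged from -0.20 to 0.15, Ptger4 from -0.067 to 0.41, Lta4h from -0.043 to 0.22 and Tbxas1 from -0.090 to 0.43. The causes were not tested. Ptges and Ltc4s, not well above background on any array, were tested only without the filter on dim probes. There Ptges had -0.44 and Ltc4s 0.24, and neither passed (limma adjusted p 0.607 and 0.761). The second Ptgs1 probe was too dim to stand for the gene.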
